A study of Mus musculus with 12 samples.

Results

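The 9 genes described here make and load major histocompatibility complex (MHC) class I molecules: H2-K1, H2-D1, B2m, Tap1, Tap2, Tapbp, Psmb8, Psmb9 and Nlrc5. They were picked by gene name, by a rule that uses no measured value but was set with earlier results of these data known, from a table of 55862 mouse genes. RNA was sequenced from brain cells of C57BL/6 mice in 12 samples, 3 in each of 4 groups. ASTs were primary astrocytes from the cortex of newborn pups, grown as a monolayer in medium with serum and taken at day 0, before any sphere culture. A-iSCs were the same kind of astrocytes after 5 days as floating spheres on agarose, in which the study looked for induced stem cells. Sphere culture and the 5 further days in culture cannot be told apart between these groups. P56-NPCs were cells dissociated from the subependymal zone in adults on postnatal day 56, and P0-NPCs were dissociated by a different protocol from the newborn hippocampus (postnatal day 0), so that age, region and protocol cannot be told apart between them. Both were used by the study as references for neural progenitors. The labels name no genetic change and give the strain C57BL/6 for every sample, while the study's methods name the C57BL/6J substrain for both NPC groups, so that substrain and group cannot be told apart. The NPC suspensions were not described as sorted, so each sample could hold several cell types. The study's methods speak in general of 3 independent experiments but do not say for the sequencing which animals or cultures the 3 samples of a group came from, so p-values measure the spread between these samples, which may be technical.

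A class I molecule is a heavy chain, here H2-K1 or H2-D1, bound to the small light chain B2m and to a peptide. Peptides are cut in the cytosol by the proteasome, in which interferon-induced subunits such as Psmb8 and Psmb9 can replace the constitutive catalytic ones. The transporter formed by Tap1 and Tap2 pumps them into the endoplasmic reticulum, where tapasin (Tapbp) holds the transporter to the waiting heavy chain. Nlrc5 is a transactivator that works at class I promoters through the factors bound there. In the brain, class I genes are known to be low in most resting neural cells, to be inducible by interferon and to be present in microglia and endothelium.

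Of the 9 genes, 7 lie on chromosome 17 (build GRCm38). H2-K1 (ENSMUSG00000061232) spans chr17:33996017-34000347 on the minus strand, and H2-D1 (ENSMUSG00000073411) spans chr17:35262730-35267499 on the plus strand. Psmb9 (ENSMUSG00000096727, chr17:34181987-34187764, minus strand), Tap1 (ENSMUSG00000037321, chr17:34187553-34197225), Psmb8 (ENSMUSG00000024338, chr17:34197721-34201454) and Tap2 (ENSMUSG00000024339, chr17:34203527-34216321) follow each other as neighbours. Tapbp (ENSMUSG00000024308) is at chr17:33915899-33929292. B2m (ENSMUSG00000060802) is at chr2:122147686-122153083 and Nlrc5 (ENSMUSG00000074151) at chr8:94434356-94527272, all on the plus strand. All 9 are protein coding.

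Sequences before the RefSeq starts of H2-K1 and H2-D1 are shown because the heavy chains had the largest differences between A-iSCs and ASTs. RefSeq windows of 250 bases before the start (GRCm38.p6) were held for 7 of the 9 genes, all but Tap2 and Nlrc5. Each heavy chain window had a match to the NF-kappaB site GGGNNTTCC and, 12 bases further on, a match to the interferon regulatory factor site GAANNGAAA on the opposite strand. The 30 bases across both matches, in capitals, differ at 1 position between the genes. The H2-D1 stretch lies before the RefSeq start but inside the longer span given for the gene above.
H2-K1, chr17:34000429-34000458, minus strand: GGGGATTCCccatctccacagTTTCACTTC
H2-D1, chr17:35262923-35262952, plus strand: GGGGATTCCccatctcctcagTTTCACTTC

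Among all 32851 RefSeq windows, both strands searched, 4.98% held GGGNNTTCC and 6.31% held GAANNGAAA. H2-K1 and H2-D1 were the only ones of the 7 windowed genes with either. The B2m window held the longer interferon-stimulated response element, a pair of GAAA with 2 bases between, found in 2.98% of windows, and Psmb8 alone of the 7 held the gamma-activated site TTCNNNGAA, found in 7.02%. The core of the cyclic AMP response element, TGACG (17.8% of windows), was in 5 of the 7, namely B2m, H2-D1, H2-K1, Psmb9 and Tap1. The CCAAT box (33.8% of windows) was in the same 5 and in Tapbp. These are matches of letters and not shown binding sites.

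The stretch upstream of H2-K1 and that upstream of B2m are shown for an arrangement that they shared. In both, TGACG was followed on the gene strand by an inverted CCAAT box whose first base lay 25 bases beyond that of TGACG. H2-D1, which is nearly the same as H2-K1 across the 30 bases shown above, had the same distance of 25 bases. In Psmb9 the distance was 136 bases, with TGACG on the opposite strand, and in Tap1 the CCAAT box came before TGACG. How many of all windows hold the arrangement was not counted. Capitals again mark the motif matches.
H2-K1, chr17:34000348-34000458, minus strand: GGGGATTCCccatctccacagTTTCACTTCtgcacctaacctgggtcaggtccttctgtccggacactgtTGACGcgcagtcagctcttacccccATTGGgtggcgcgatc
B2m, chr2:122147548-122147685, plus strand: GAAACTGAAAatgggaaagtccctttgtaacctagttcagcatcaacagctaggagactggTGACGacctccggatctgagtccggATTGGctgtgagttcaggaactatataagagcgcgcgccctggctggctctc

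Levels are given in FPKM, the fragments counted per kilobase of gene and per unit of library size, so that they can be set side by side between genes. Between 17077780 and 24452419 fragments per sample fell on genes, and for a gene of 1 kilobase the floor of 3 fragments was worth 0.103 to 0.187 FPKM, which covers counting error only. Mitochondrial genes took 16.5 to 17.6% of the fragments in P56-NPCs and 2.94 to 7.03% in the other samples. AST replicate 2 and A-iSC replicate 3 were each the farthest from their own group, and results that rest on them are given below without them. The listed markers did not fully match the labels of single cell types. Astrocyte markers summed to 143 to 161 FPKM in ASTs, less than in any other group (1211 to 2466 in A-iSCs, 2834 to 3072 in P56-NPCs and 238 to 303 in P0-NPCs). Against P0-NPCs the list split. Aqp4, Aldh1l1, S100b and Gja1 were higher in ASTs, and Gfap, Slc1a3, Slc1a2 and Aldoc were higher in P0-NPCs. Oligodendrocyte markers summed to 11496 to 13147 FPKM in P56-NPCs against at most 83.2 elsewhere. Because these were bulk samples, more cells of a type and more RNA per cell could not be told apart.

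All 9 genes had the same order of group means, with A-iSCs highest, then ASTs, P56-NPCs and P0-NPCs. Differences were tested with limma on log2(FPKM + 1) over all genes with a mean of at least 1 FPKM in either group, and a call needed a p under 0.05 after Benjamini-Hochberg adjustment over all tested genes. A log2 fold change on this scale understates the change of low genes, so the ratio of mean FPKM is given beside it. In A-iSCs over ASTs, all 9 genes were tested. Of them, 8 were called higher and 0 lower, and of the 8 that passed the filter in both groups (all but Nlrc5) 7 were called higher, where 25.2% of the 14087 tested genes were called higher and 29.6% lower. The median log2 fold change was 1.10 over the 9 genes and -0.06 over all tested genes.

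**Figure D1:**
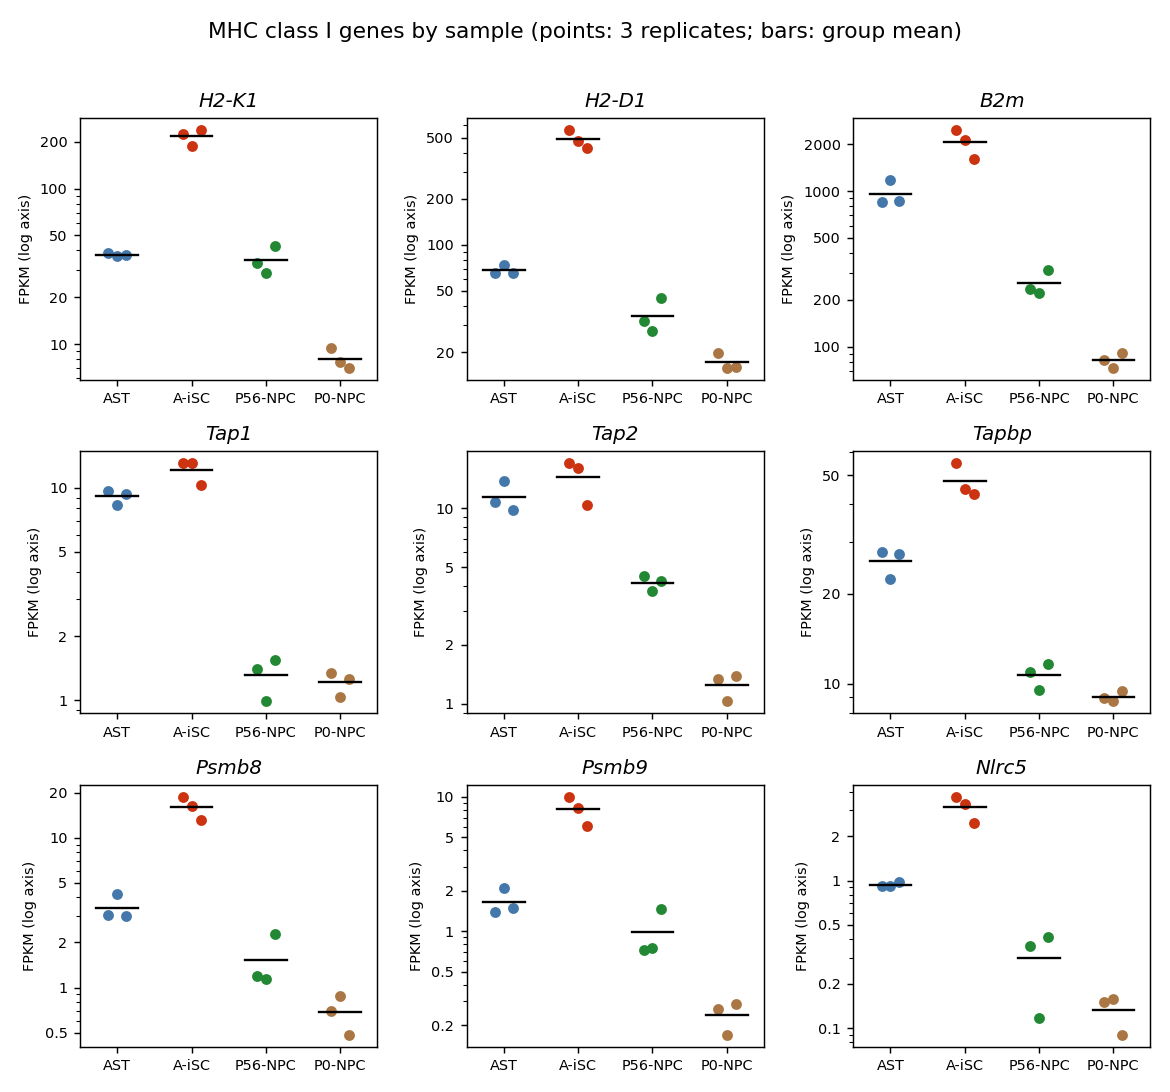
FPKM of the 9 genes in each of the 12 samples on log axes, with 1 point per sample and a bar at the mean of the 3 samples of a group. For 8 of the genes every A-iSC sample lay above every AST sample, and for Tap2 the lowest A-iSC sample (10.5 FPKM) lay among the AST samples (9.83 to 13.8 FPKM).

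The heavy chains rose most. H2-K1 had 38.4, 36.8 and 37.6 FPKM in the 3 AST samples and 225, 188 and 239 FPKM in the A-iSC samples. Its mean was 5.79 times higher in A-iSCs, for a log2 fold change of 2.50 (SE 0.13, limma adjusted p = 1.11e-05). H2-D1 had 65.8, 73.4 and 65.2 FPKM in ASTs and 564, 476 and 428 FPKM in A-iSCs, which made it the higher of both chains in each of these samples. Its mean was 7.18 times higher, a log2 fold change of 2.82 (SE 0.15, limma adjusted p = 1.12e-05). The groups of neither chain overlapped, as held for 8 of the 9 genes with A-iSCs higher and for 28.8% of all tested genes.

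B2m was the most abundant of the 9 genes per length in every sample. It had 848, 1184 and 859 FPKM in ASTs and 2482, 2136 and 1617 FPKM in A-iSCs. The highest AST sample was replicate 2 and the lowest A-iSC sample replicate 3. The mean was 2.16 times higher in A-iSCs, for a log2 fold change of 1.10 (SE 0.25, limma adjusted p = 0.00781). The call was lost when genes of low value were kept in the fit (adjusted p = 0.0846).

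The transporter and tapasin moved less. Tap1 had 9.64, 8.33 and 9.38 FPKM in ASTs and 13.1, 13.1 and 10.3 FPKM in A-iSCs, for a log2 fold change of 0.37 (SE 0.13, limma adjusted p = 0.0423). This call was lost without the filter on low values (adjusted p = 0.0637), with the replicate number as a block (adjusted p = 0.0584) and in 5 of the 6 refits with a sample removed, the exception being the refit without A-iSC replicate 3. Tap2 had 10.8, 13.8 and 9.83 FPKM in ASTs and 17.1, 16.1 and 10.5 FPKM in A-iSCs, and was not called. Its log2 fold change was 0.30 with a 95% interval of -0.18 to 0.79 (limma adjusted p = 0.251). Without A-iSC replicate 3, Tap2 was called at 0.51 (adjusted p = 0.0243). Tapbp had 27.7, 22.4 and 27.2 FPKM in ASTs and 55.0, 44.9 and 43.3 FPKM in A-iSCs, for a log2 fold change of 0.86 (SE 0.14, limma adjusted p = 0.00201). Tapbp shares 3422 bases with Zbtb22 on the same strand, which reached 20.5 FPKM, so a part of the reads may have been counted for either gene.

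The immunoproteasome subunits Psmb8 and Psmb9 were low in ASTs and rose in A-iSCs. Psmb8, which takes the place of Psmb5, had 3.03, 4.19 and 3.03 FPKM in ASTs and 18.8, 16.2 and 13.1 FPKM in A-iSCs. The mean was 4.69 times higher, a log2 fold change of 1.94 (SE 0.17, limma adjusted p = 7.78e-05). Psmb9, which takes the place of Psmb6, had 1.39, 2.10 and 1.49 FPKM in ASTs and 10.03, 8.22 and 6.11 FPKM in A-iSCs. The mean was 4.90 times higher, a log2 fold change of 1.77 (SE 0.19, limma adjusted p = 0.000219). Psmb9 and Tap1 overlap by 212 bases on opposite strands, and whether counting used the strand is not given in the sources used here.

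Nlrc5, the transactivator, was the lowest of the 9 genes in every sample. It had 0.913, 0.923 and 0.983 FPKM in ASTs and 3.704, 3.30 and 2.48 FPKM in A-iSCs. It passed the filter on low values only through A-iSCs. The ratio of means was 3.36 and the log2 fold change 1.09 (SE 0.14, limma adjusted p = 0.000496), and the groups did not overlap. Counts behind it were 130 to 159 fragments in AST samples and 564 to 666 in A-iSC samples.

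Leaving out AST replicate 2 and A-iSC replicate 3 together, which was tried only once the values were known, all 9 genes were called higher in A-iSCs. In that refit 4793 of 14179 tested genes were called higher, against 3550 of 14087 with all samples. Tap2 was then at 0.64 (limma adjusted p = 0.0011). With 1 sample left out at a time, 7 to 9 of the 9 were called higher, as were 2799 to 4181 of the 14051 to 14173 genes tested.

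Of 5 further immunoproteasome and activator genes, 0 were called higher and 2 lower (25.2% and 29.6% of all tested genes), with a median log2 fold change of 0.09. Psmb10, the third inducible catalytic subunit, had a log2 fold change of 0.34 (limma adjusted p = 0.311), with 22.5, 31.6 and 20.6 FPKM in ASTs and 39.7, 35.8 and 21.1 FPKM in A-iSCs. The lowest A-iSC sample, replicate 3, lay among the AST samples, and without it Psmb10 was called at 0.60 (adjusted p = 0.0311). The activator subunits Psme1 and Psme2 were at 0.70 (adjusted p = 0.0556) and 0.09 (adjusted p = 0.767). The result for Psme1 depended on the fit, as it was called higher with scaling by library size (0.91, adjusted p = 0.0172) or upper quartile (0.91, adjusted p = 0.0282), with all 4 groups in the model (adjusted p = 0.013), with the replicate block (adjusted p = 0.0292) and with limma-voom (adjusted p = 0.0440). It was also called without A-iSC replicate 3 (0.92, adjusted p = 0.0142) and without AST replicate 2 (0.90, adjusted p = 0.0302). Without both of these libraries Psmb10 (0.78), Psme1 (1.12) and Psme2 (0.49) were all called higher (limma adjusted p at most 0.00859). Psme3, of the nuclear activator, was lower by limma (-0.45, adjusted p = 0.00941), as was the assembly factor Pomp (-0.61, adjusted p = 0.0259).

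Of the 3 constitutive catalytic subunits, 2 were lower in A-iSCs and 0 higher, where 29.6% of all tested genes were lower and 25.2% higher. Psmb7 fell by 0.96 on the log2 scale (limma adjusted p = 0.000766) and Psmb5 by 0.61 (adjusted p = 0.0372), while Psmb6 was at -0.47 (adjusted p = 0.153). The call of Psmb5 was lost in 5 of the 6 refits with a sample removed, with no filter and under both other scalings. The ratio of Psmb8 to Psmb5 was 0.0185 to 0.0207 in AST samples and 0.136 to 0.151 in A-iSC samples. That of Psmb9 to Psmb6 was 0.0134 to 0.0160 in ASTs and 0.0967 to 0.1001 in A-iSCs. Psmb10 was at 0.414 to 0.621 of Psmb7 in ASTs and 0.708 to 1.76 in A-iSCs. No ratio overlapped between these groups, and 3 samples against 3 cannot give an exact permutation p under 0.1. In both NPC groups Psmb8 stood at no more than 0.0318 of Psmb5 in any sample.

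**Figure D2:**
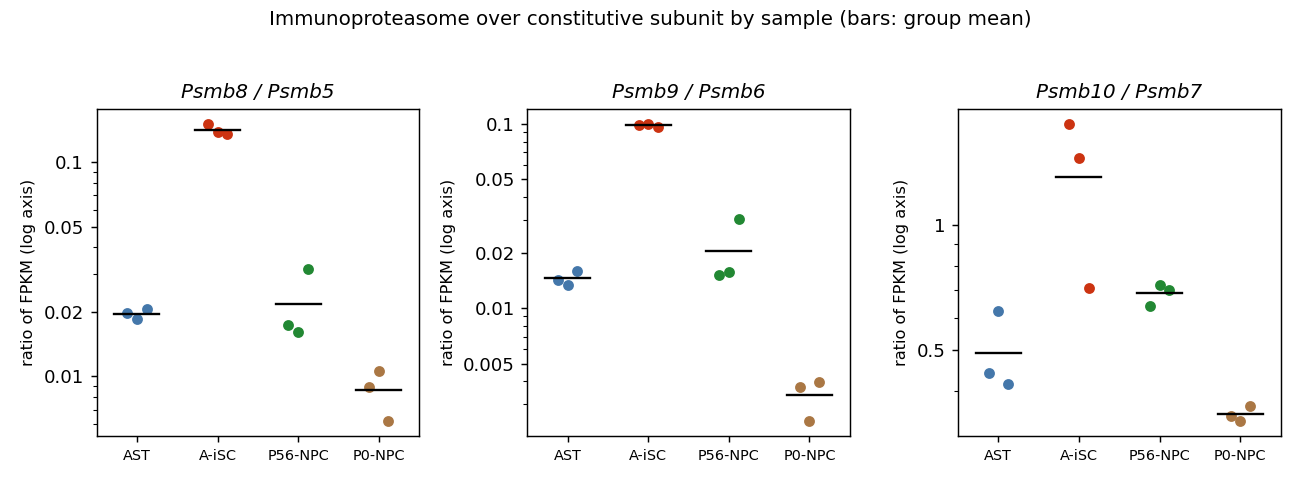
Ratio of FPKM of each inducible proteasome subunit to the constitutive subunit it can replace, in each of the 12 samples on log axes, with a bar at the mean of 3 samples. Psmb8 over Psmb5 averaged 0.0197 in ASTs and 0.142 in A-iSCs, and Psmb10 over Psmb7 had the widest spread in A-iSCs.

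Of 23 other class I heavy chains listed, 11 were tested and 5 of these passed the filter in both groups. Among the 5, H2-Q4, H2-T23, H2-M3 and Mr1 were called higher in A-iSCs and H2-T22 was not (adjusted p = 0.0536). The other 6 (H2-Q6, H2-Q7, H2-K2, H2-T10, H2-T24 and Cd1d1) were tested only because they passed in A-iSCs, a choice that by itself favours higher values there. H2-T23, which encodes Qa-1, a ligand of receptors on natural killer cells, went from 6.26 ± 0.81 FPKM (SD, n = 3) to 65.3 ± 14.01 FPKM, a log2 fold change of 3.18 (SE 0.18, limma adjusted p = 1.18e-05). Of the genes that passed only through A-iSCs, H2-Q6 was at 2.64 and H2-T24 at 2.11. H2-K2, likewise, had 0 to 0.202 FPKM in ASTs and 1.26 to 3.94 FPKM in A-iSCs, for a log2 fold change of 1.67. H2-M3, which presents formylated peptides, was at 1.60 (adjusted p = 0.000105). Mr1, which presents vitamin metabolites, was at 0.52 (adjusted p = 0.0279), and lost its call with no filter and without any 1 of the AST samples. Several of these genes are near-identical copies of each other, so their separate values are uncertain. Windows of a read's length that also occur in another gene made up 0% of the H2-K1 transcript and 3.44% of that of H2-D1. Summed over 22 class I heavy chains, the mean FPKM was 150 in ASTs and 877 in A-iSCs (log2 fold change 2.54, limma adjusted p = 1.86e-05).

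Of 10 further loading and trimming genes, all tested, 0 were higher in A-iSCs, 4 were lower (29.6% of all tested genes were lower) and 6 were not called, with a median log2 fold change of -0.38. The 4 lower ones were the lectin chaperones Calr (-0.84, limma adjusted p = 0.00931) and Canx (-1.03, adjusted p = 0.0245), the disulfide isomerase Pdia3 (-1.04, adjusted p = 0.00238) and the ubiquitin-conjugating enzyme Ube2j1 (-0.53, adjusted p = 0.00511). The first 3 fold glycoproteins in general and are not specific to class I. The Canx samples overlapped between the groups (194, 110 and 188 FPKM in ASTs, 63.8, 63.7 and 114 in A-iSCs), and its call was lost in 4 of the 6 refits with a sample removed, with no filter and under both other scalings. The tapasin-related Tapbpl was at -0.11 (95% interval -0.43 to 0.21, adjusted p = 0.528), and the trimming peptidase Erap1 at -0.12 (95% interval -0.62 to 0.38, adjusted p = 0.659). The sign of both turned to plus with scaling by library size or by upper quartile. Without AST replicate 2 and A-iSC replicate 3, Erap1 was called lower (-0.47, adjusted p = 0.00243).

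Regulators of class I genes were tested for 25 of 26 listed genes, and 13 were higher in A-iSCs and 2 lower (25.2% and 29.6% of all tested genes), with a median log2 fold change of 0.47. The interferon-linked factors Irf8 and Irf7 had the largest values. Irf8, which is also a factor of myeloid cells, had 1.28, 1.26 and 1.33 FPKM in ASTs and 19.1, 18.2 and 16.4 FPKM in A-iSCs (log2 fold change 3.04, limma adjusted p = 3.54e-06). Irf7 had 5.92, 8.41 and 6.72 FPKM in ASTs and 79.7, 65.0 and 40.3 FPKM in A-iSCs (2.92, adjusted p = 8.06e-05). Stat2 (1.36, adjusted p = 0.0026) and the feedback inhibitor Socs3 (1.20, adjusted p = 0.000374) were also higher. Irf1, an activator of class I promoters, was at 0.79 (adjusted p = 0.00674). Rfx5, a subunit of the factor through which Nlrc5 reaches promoters, was at 0.47 (adjusted p = 0.017), and lost its call without AST replicate 2. The lower genes were Rfxap (-0.50, adjusted p = 0.0133), another subunit of that factor, and Nfyc (-0.45, adjusted p = 0.0122), which is part of the CCAAT-binding complex.

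Interferon ligands were hardly seen. None of the 8 listed reached the filter, and Ifng was counted on 0 fragments in ASTs and A-iSCs and on at most 1 fragment in any NPC sample. Ifnb1 was counted on 0 or 1 fragments in AST samples and on 1 to 3 in A-iSC samples, which does not exceed the floor of 3 fragments.

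Microglia markers rose along with the class I genes from ASTs to A-iSCs, but not from ASTs to P56-NPCs. Of the 14 listed markers, 10 passed the filter in both ASTs and A-iSCs. Each of these 10 was called higher in A-iSCs, where 25.2% of all tested genes were. P2ry12, Ptprc and Trem2 were also called higher but passed the filter only through A-iSCs. The summed FPKM of the 14 markers was 265 to 308 in ASTs, 2773 to 3708 in A-iSCs, 964 to 1021 in P56-NPCs and 165 to 196 in P0-NPCs. Without C1qa, C1qb and C1qc the sum was 83.5 to 103 FPKM in ASTs and 635 to 755 in A-iSCs. It was then 491 to 517 FPKM in P56-NPCs and 60.7 to 75.9 in P0-NPCs, so the gap between A-iSCs and P56-NPCs was narrower. Aif1 had 2.64 to 4.38 FPKM in ASTs and 35.6 to 47.7 FPKM in A-iSCs, and Csf1r, the growth factor receptor that microglia need, had 7.15 to 8.47 and 74.3 to 104 FPKM. P2ry12, a marker of resting microglia, had 0.523 to 0.761 FPKM in ASTs, 5.48 to 9.23 in A-iSCs and 60.0 to 60.3 in P56-NPCs. Siglech was at or near 0 in ASTs and A-iSCs (0 to 0.0733 FPKM) but reached 17.6 to 19.2 FPKM in P56-NPCs. H2-K1, H2-D1 and B2m together summed to 952 to 1294 FPKM in ASTs, 2284 to 3271 in A-iSCs, 279 to 401 in P56-NPCs and 96.8 to 114 in P0-NPCs. P56-NPCs had more microglia marker RNA than ASTs and less of the class I chains. In P56-NPCs over ASTs, all 13 tested microglia markers were called higher. Of the 8 class I genes tested there, 6 were called lower and 0 higher. The rise in A-iSCs over ASTs was not particular to microglia markers. Of the 8 astrocyte markers, all past the filter in both of these groups, 7 were called higher and 0 lower. The part of microglia in the difference between A-iSCs and ASTs was not tested.

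**Figure D3:**
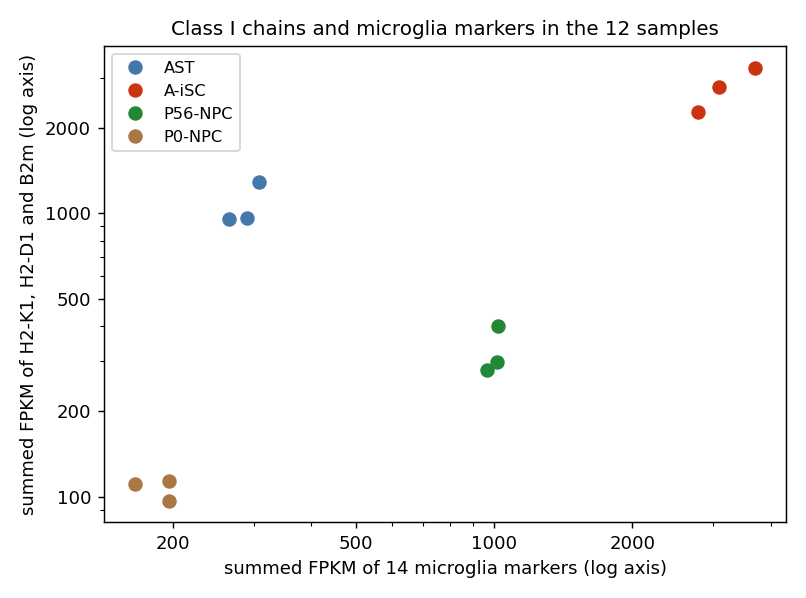
Summed FPKM of H2-K1, H2-D1 and B2m against the summed FPKM of 14 microglia markers in the 12 samples, both on log axes. The 14 markers include C1qa, C1qb and C1qc. The 3 A-iSC samples lay highest on both axes, and the P56-NPC samples lay to the right of the AST samples but below them.

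Markers of T and NK cells summed to at most 0.21 FPKM in A-iSCs and 1.28 FPKM in any sample. Endothelial markers summed to 9.90 to 11.03 FPKM in ASTs and 3.28 to 4.77 in A-iSCs, with 88.2 to 95.1 in P0-NPCs and 6.195 to 7.09 in P56-NPCs. Mural and fibroblast markers fell from 159 to 213 FPKM in ASTs to 10.4 to 12.1 in A-iSCs (all 4 that passed the filter in both groups lower), and had 18.9 to 23.2 in P56-NPCs and 173 to 178 in P0-NPCs. Col1a1 made up most of the AST sum (mean 158 FPKM, against 2.98 in A-iSCs). Rgs5 and Kcnj8, under the filter in both groups, were higher in every A-iSC sample than in any AST sample. Neuron markers summed to 88.3 to 124 FPKM in ASTs, 51.6 to 68.9 in A-iSCs, 214 to 258 in P56-NPCs and 858 to 1035 in P0-NPCs. The lower neuron sum in A-iSCs followed Stmn2 (mean 53.8 FPKM in ASTs and 7.16 in A-iSCs). Of the 5 neuron markers tested there, 1 was called lower (Stmn2) and 2 higher (Dcx and Gad1). The higher ones passed the filter only through A-iSCs. Ependymal markers summed to 41.5 to 49.8 FPKM in ASTs, 48.5 to 62.3 in A-iSCs, 222 to 287 in P56-NPCs and 58.9 to 74.6 in P0-NPCs, and A-iSCs had the higher value over ASTs in a call for 3 of the 4 tested, of which 1 passed the filter in both groups. Oligodendrocyte markers summed to 17.8 to 19.6 FPKM in ASTs and 60.6 to 83.2 in A-iSCs. All 4 tested were higher in A-iSCs, though 1 of them passed the filter in both groups. The part of these cells in the class I values was not tested.

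The NPC groups were next compared with ASTs, which are also the control of the comparison above, so that the results are not independent of it. ASTs and A-iSCs were both cultures from newborn cortex. Between them and either NPC group, culture, region and protocol cannot be told apart, nor can age for P56-NPCs. In P56-NPCs 6 of the 8 tested genes were lower and 0 higher (39.8% of 15146 tested genes were called lower), with a median log2 fold change of -1.09 against -0.03 over all tested genes. Groups did not overlap for 7 of the 9 genes with P56-NPCs lower, as for 41.3% of all tested genes. With scaling by library size alone, that median over all tested genes moved to -0.34 and all 8 tested genes were called lower. Of all genes, 7561 of 14669 tested were then called lower. By upper quartile the median moved to 0.11, and 6 of the 8 were called lower, as were 5115 of 14968 tested genes. Oligodendrocyte RNA and the high mitochondrial share moved with this group, and their part in these differences was not tested.

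Tap1 fell furthest of the 9 genes in P56-NPCs, to 1.40, 0.990 and 1.55 FPKM (log2 fold change -2.13, limma adjusted p = 2.21e-06). Tap2, with 4.49, 3.76 and 4.27 FPKM, was lower by less (-1.26, adjusted p = 6.95e-05), and Tapbp had 10.9, 9.53 and 11.7 FPKM (-1.19, adjusted p = 4.24e-05). B2m had 234, 223 and 313 FPKM, 3.75 times lower than in ASTs (-1.90, adjusted p = 6.53e-05). The heavy chains parted here. H2-D1 had 31.7, 27.3 and 44.8 FPKM (-0.99, adjusted p = 0.00139), whereas H2-K1 had 33.0, 28.8 and 43.0 FPKM, around the AST samples (-0.12, 95% interval -0.45 to 0.21, adjusted p = 0.446). Without P56-NPC replicate 3 H2-K1 was called lower (-0.28, adjusted p = 0.0346). The sum of 22 class I heavy chains was also lower in P56-NPCs, at a mean of 93.0 FPKM (-0.70, adjusted p = 0.00558).

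Psmb8 had 1.19, 1.14 and 2.28 FPKM in P56-NPCs and was lower than in ASTs (-0.82, limma adjusted p = 0.00555). Psmb9 had 0.724, 0.749 and 1.48 FPKM, with replicate 3 among the AST samples, and was not called (-0.43 with the filter passed only through ASTs, 95% interval -0.84 to -0.02, adjusted p = 0.0519). It was called without that replicate (-0.60, adjusted p = 0.007), by library size (-0.58, adjusted p = 0.00935), with all 4 groups in the model (adjusted p = 0.0429) and with limma-voom (adjusted p = 0.0306). Nlrc5, with 0.359, 0.117 and 0.415 FPKM from 16 to 58 fragments, was under the filter in both groups. Fitted with no filter, it was 0.59 lower on the log2 scale (-0.59, adjusted p = 0.00398). P56-NPC replicate 3 was the highest of its group for 8 of the 9 genes, all but Tap2.

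In P0-NPCs all 8 tested genes were lower than in ASTs, against 40.9% of 15010 tested genes, and none of the 9 overlapped, as for 42.1% of tested genes with P0-NPCs lower. The median log2 fold change was -2.02 against -0.07 over all tested genes. B2m had 82.1, 73.4 and 90.8 FPKM, 11.7 times lower than in ASTs (-3.52, limma adjusted p = 7.33e-07). H2-K1 had 9.49, 7.62 and 7.03 FPKM (-2.10, adjusted p = 1.03e-06) and H2-D1 had 19.6, 15.8 and 16.0 FPKM (-1.93, adjusted p = 1.51e-06). Tap1, at 1.34, 1.04 and 1.27 FPKM, and Tap2, at 1.33, 1.03 and 1.38 FPKM, stood at like levels, with log2 fold changes of -2.19 and -2.46. Tapbp was the least reduced as a ratio, 2.86 times lower, with 8.92, 8.72 and 9.42 FPKM (-1.41, adjusted p = 5.44e-06). Psmb8 had 0.483 to 0.874 FPKM (-1.39) and Psmb9 0.169 to 0.288 FPKM from 18 to 29 fragments (-1.09, adjusted p = 7.77e-05). Both passed the filter only through ASTs. Nlrc5 had 0.149, 0.158 and 0.0898 FPKM and was under the filter, and with no filter was at -0.78 (adjusted p = 0.000146).

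**Figure D4:**
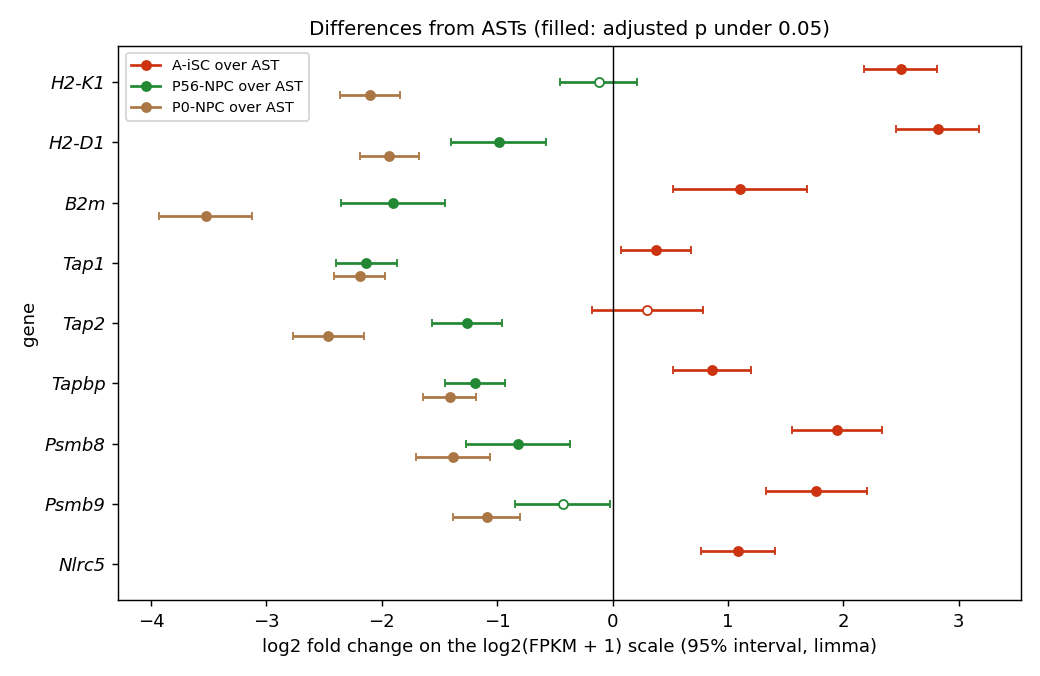
Log2 fold change of each gene over ASTs in A-iSCs, P56-NPCs and P0-NPCs, on the log2(FPKM + 1) scale with 95% intervals from limma. Filled points were called and open points were not, Nlrc5 was not tested for either NPC group, and every called value was above 0 for A-iSCs and below 0 for the NPC groups.

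A-iSCs were then set against the NPC groups, the references of the study, with the A-iSC samples of the comparison above. All 9 genes were higher in A-iSCs than in P56-NPCs (30.1% of 15044 tested genes were called higher), with log2 fold changes of 1.56 for Tap2 to 3.81 for H2-D1 and a median of 2.51 against 0.03 over all tested genes. Psmb9 and Nlrc5 passed the filter there only through A-iSCs, which left 7 that passed in both groups. H2-D1 was 14.2 times higher and H2-K1 6.23 times higher. All 9 were also higher than in P0-NPCs (31.5% of 15170 tested genes were called higher), from 1.87 for Nlrc5 to 4.75 for H2-D1, with a median of 2.86 against -0.02. There Psmb8, Psmb9 and Nlrc5 passed only through A-iSCs, which left 6. Over P0-NPCs the ratio of means was 33.9 for Psmb9, 28.5 for H2-D1, 27.1 for H2-K1 and 25.3 for B2m. In both comparisons no gene overlapped between groups, which held for 34.7% and 34.4% of tested genes with A-iSCs higher. Adjusted p-values from limma were at most 0.000288 over these 18 tests.

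Of the 10 further loading and trimming genes, 9 were higher in A-iSCs than in P56-NPCs (30.1% of all tested genes) and 7 than in P0-NPCs (31.5%), with 0 lower in either. Calr was at 1.20 over P56-NPCs (limma adjusted p = 0.000402) and at 0.80 over P0-NPCs (adjusted p = 0.00472). H2-T23 was at 3.36 (adjusted p = 2.33e-05) and 4.19 (adjusted p = 8.43e-07). Rfx5 was called in neither (-0.15, adjusted p = 0.301, and 0.11, adjusted p = 0.525).

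Between the NPC groups, 6 of the 7 tested genes were higher in P56-NPCs and 0 lower (39.7% of 15394 tested genes were called higher), with a median log2 fold change of 0.95 against 0.01. The groups did not overlap for 7 of the 9 genes, as for 41.0% of tested genes with P56-NPCs higher. H2-K1 differed most, 4.34 times higher in P56-NPCs (1.98, limma adjusted p = 1.37e-05), followed by B2m (1.62, adjusted p = 2.27e-05), Tap2 (1.20, adjusted p = 1.49e-05) and H2-D1 (0.95, adjusted p = 0.00149). Psmb8, which passed the filter only through P56-NPCs, was at 0.57 (adjusted p = 0.0217) and Tapbp at 0.22 (adjusted p = 0.0377). Neither call was stable. That of Tapbp was lost with no filter (adjusted p = 0.0634), with all 4 groups in the model (adjusted p = 0.107) and in 4 of the 6 refits with a sample removed. That of Psmb8 was lost with no filter (adjusted p = 0.0589), by upper quartile (adjusted p = 0.0612) and without P0-NPC replicate 1 or 3. Tap1 was not called (0.06, 95% interval -0.22 to 0.34, adjusted p = 0.677). Psmb9 and Nlrc5 were under the filter in both groups, and with no filter Psmb9 was at 0.66 (adjusted p = 0.0148) and Nlrc5 at 0.19 (adjusted p = 0.166). This comparison depended most on the scaling. By library size alone the median of all tested genes moved to -0.53, Tapbp turned to -0.35 (adjusted p = 0.00609; by upper quartile -0.0093, not called) and H2-D1 and Psmb8 lost their calls.

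Likeness between the 9 genes was described by Pearson's r of log2(FPKM + 1) over the 12 samples, which share libraries and fall into 4 groups, so that r mostly follows the group means. Over the 36 pairs r ranged from 0.782 (H2-K1 and Tap1) to 0.995 (H2-D1 and Psmb8), with a median of 0.925. Among 13651 other protein-coding genes, those most like the mean pattern of the 9 were Hexa (0.996), Lgals3bp (0.995), Ctsd (0.994), Casp1 (0.993), Cndp2 (0.993), Ctsz (0.992), Ifit2 (0.992), C5ar1 (0.991), Ifnar2 (0.991) and Mfsd12 (0.990). Hexa, Ctsd and Ctsz encode lysosomal enzymes, Ifit2 is an interferon-induced gene and C5ar1 is a complement receptor. Ctsd had mean levels of 642 FPKM in ASTs, 1967 in A-iSCs, 203 in P56-NPCs and 83.2 in P0-NPCs, and Ifit2 had 13.6, 36.8, 5.11 and 2.81 FPKM.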

How the data were processed

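Total RNA of 12 samples, 3 per group, had been sequenced, and groups were taken from the sample labels. The authors deposited 1 table of FPKM for 55862 genes with gene lengths. The unit was inferred, as FPKM times gene length gave whole fragments for 100% of values (tolerance 0.01). The submitters' processing notes name Bowtie 0.12.2 and mm8, but gene positions of 54985 of 55240 shared identifiers equal those of GENCODE M21 on GRCm38, which was used here. The counting tool and its strand setting are not given in the sources used here. The values were already scaled between samples, to 0.744 to 1.22 times the counted fragments. Columns of the table that were not used numbered 0.

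limma 3.58.1 in R 4.3.3 (lmFit, eBayes with trend) was run on log2(FPKM + 1) for 2 groups at a time, over genes with a mean of at least 1 FPKM in either group, and was tested on simulated data. The study's methods name DESeq2, which needs counts and was not run. Alternatives were a pseudocount of 0.1, no filter, scaling by library size or upper quartile, all 4 groups in the model, a replicate block, limma-voom on recovered fragments, and each replicate left out. Leaving out the farthest AST and A-iSC library together was added after the data were seen. The text names the 9 genes, 17 listed pathway genes, up to 4 called genes with the largest changes of each further list, and the 10 most alike genes. A gene that this rule names is not reported here. The microglia markers named singly and the ligands were chosen after their values were seen. The genes and lists were chosen with earlier results of these data known. Motifs were searched in RefSeq windows of GRCm38.p6 with Python 3.11.15.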

Additional observations from a re-analysis of the deposited data

How the results depend on the processing

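Over the 6 comparisons, the counts of members called in either direction stayed within 1.5 times the reported counts under every alternative run. They were 6 to 9 for A-iSCs over ASTs, 6 to 8 for P56-NPCs over ASTs, 8 to 9 for P0-NPCs over ASTs, 9 for A-iSCs over each NPC group and 4 to 7 for P56-NPCs over P0-NPCs. The upper ends of 9 over ASTs in P0-NPCs and of 7 in the last comparison include a gene that only the alternative brought past the filter. In the last comparison 3 members stayed called higher by library size (H2-K1, B2m and Tap2) against 6 as reported, and Tapbp was called lower. Under that scaling 3441 of 15410 tested genes were called higher and 9432 lower. Single member values kept direction and side of the threshold in 634 refits, lost a call in 20, gained it in 9 and reversed in 8.

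These values reversed. Over ASTs in A-iSCs, Tapbpl went to 0.077 with library size and 0.080 with upper quartile, and Erap1 to 0.068 and 0.072. With each replicate left out Erap1 ranged from -0.33 to 0.014 and Psme2 from -0.062 to 0.31. H2-K1 in P56-NPCs over ASTs was 0.039 with upper quartile and -0.28 to 0.0032 with replicates left out. In P56-NPCs over P0-NPCs, Tap1 was -0.29 with library size, -0.084 with upper quartile and -0.018 to 0.16 with replicates left out, and Tapbp was -0.35 and -0.0093. The cause was not tested.

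Scaling moved the share of calls that were higher, from 46.0% to 60.4% (library size) and 60.9% (upper quartile) for A-iSCs over ASTs, with a median log2 fold change of 0.13 under each. For P56-NPCs over ASTs it went from 49.5% to 37.7% and 55.98%, for P0-NPCs over ASTs from 48.2% to 59.4% and 64.1%, for A-iSCs over P56-NPCs from 49.4% to 74.4% and 52.4%, for A-iSCs over P0-NPCs from 48.3% to 44.2% and 38.5%, and for P56-NPCs over P0-NPCs from 50.4% to 26.7% and 39.8%. The labels do not say whether equal replicate numbers pair the samples. Deviations from the group mean correlated at -0.378, 0.335 and 0.427 between equal numbers of ASTs and A-iSCs. With 3 samples in a group these values cannot decide it. With the replicate block 7 members were called in A-iSCs over ASTs, with Tap1 lost (adjusted p = 0.0584 by limma), and the counts of the other comparisons did not change. Nlrc5 and Psmb9 were left untested in NPC comparisons by the filter of 1 FPKM, not by a count under the floor of 3 fragments.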

Other observations

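The proportions of class I parts differed between groups, as ratios of FPKM chosen after their values were seen and given with no test. H2-D1 stood at 1.71 to 1.99 times H2-K1 in ASTs, 1.79 to 2.53 in A-iSCs and 2.07 to 2.28 in P0-NPCs, but at 0.946 to 1.04 in P56-NPCs, below each sample of the other groups. Tap1 stood at 0.263 to 0.363 times Tap2 in P56-NPCs and at 0.603 to 1.01 times in the other groups, also without overlap. B2m stood at 22.1 to 32.2 times H2-K1 in ASTs, against 6.75 to 11.3 in A-iSCs, 7.10 to 7.74 in P56-NPCs and 8.65 to 12.9 in P0-NPCs, so ASTs held the most light chain RNA per heavy chain RNA.

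H2-M2, a nonclassical heavy chain under the filter, was counted on 0 to 2 fragments in each AST sample and on 21 to 44 in each A-iSC sample (0.672 to 1.19 FPKM), and on at most 1 fragment in any NPC sample. It was chosen after its values were seen, and it was not tested.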
